A study of Mus musculus with 7 samples.

Results

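Super-enhancer-like domains of cerebellar granule neuron progenitors (GNPs) that hold binding sites of the chromatin remodeller Chd7 are described here. Neighbouring H3K27ac peaks of WT GNPs with gaps of at most 12500 bp were joined, which gave 17532 stitched regions on chromosomes 1 to 19 and X. Each region was scored by its H3K27ac signal, the sum over its peaks of length in Mb times pileup, which is the number of fragments overlapping at the summit as macs2 scaled it, and the 600 highest regions were kept as domains. Of these, 246 overlapped at least 1 Chd7 peak of WT GNPs that overlapped no Chd7 peak of *Chd7*-deficient GNPs, and the other 354 did not. The domains were thus chosen by their H3K27ac and Chd7 values, which are given as a description, without a test.

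The ChIP-seq libraries came from C57BL/6 mice (C57BL/6N in the study's methods) at postnatal day 7 (P7), with no treatment and 1 library per condition. H3K27ac was measured in WT GNPs, Chd7 in WT and in *Chd7*-deficient GNPs, all freshly isolated. Top2b was measured in WT and *Chd7*-deficient cerebellar granule neurons (CGNs), made by culturing GNPs for 48 h without Shh, the mitogen that keeps GNPs dividing. The labels name the *Chd7* KO libraries and give no genotype for the others, which are called WT here after the study. The study describes its WT mice as Chd7 f/f and its *Chd7*-deficient mice as Atoh1-Cre::Chd7 f/f, so that both carry the floxed allele and Cre acts in cells that express *Atoh1*, the granule lineage factor. The number of animals behind each library is not given in the sources used here, and no value below has a replicate error. Intervals are 95% intervals, Wilson for shares and exact Poisson for densities, and cover counting error only.

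Super-enhancers are long clusters of enhancers, dense in H3K27 acetylation, that lie at genes of cell identity. H3K27ac marks active promoters as well as active enhancers, so a stitched domain can hold both. Chd7 is an ATP-dependent nucleosome remodeller of the CHD family, and Top2b is the type II topoisomerase of postmitotic neurons, which cuts and reseals both DNA strands.

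In WT GNPs, 1884 of the 1946 Chd7 peaks overlapped none of the 96 peaks of *Chd7*-deficient GNPs (96.8%, the contrast that the choice of domains used), and 1869 of them lay on the chromosomes used. No peak of *Chd7*-deficient GNPs lay in any of the 600 domains. H3K27ac peaks lay at a start site of all 10 GNP marker genes listed, and 7 of these genes were in the 600 domains. The corresponding counts were 2 of 6 for Purkinje cells, 4 of 6 for inhibitory interneurons, 2 of 6 for astroglia, 2 of 6 for oligodendrocytes, 1 of 5 for microglia and 0 of 5 for endothelium and pericytes. Of these other markers, *Lhx1* (rank 233, without Chd7) and *Pdgfra* (rank 285, with Chd7) were in the 600. *Atoh1*, *Gli1* and *Gli2* had acetylated start sites but ranked below 600.

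The bases from 50 before to 50 after a Chd7 summit show what DNA lay at the centre of a site. Windows were taken at the highest-fold Chd7 peak of each domain with 3 or more Chd7 peaks and of each domain with 1 of the 10 highest-fold peaks, apart from the *Tcf4* domain, which meets both conditions. Of these 19 windows, 6 lay within 1 kb of a transcription start site, and 0 of these 6 held any of the 9 motifs searched. The other 13 lay in introns or between genes, and 11 of them held at least 1 motif. Of the 13, those below are printed to show where matches lie and how windows without one look, from the RefSeq GRCm38 genome (mm10), plus strand, 5′ to 3′. Capitals mark motif matches on either strand, and overlapping matches merge into 1 run of capitals.
Ppara domain, chr15:85670208-85670308: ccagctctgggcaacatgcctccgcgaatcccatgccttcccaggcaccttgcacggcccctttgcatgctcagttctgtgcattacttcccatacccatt
Clybl domain, chr14:122367507-122367607: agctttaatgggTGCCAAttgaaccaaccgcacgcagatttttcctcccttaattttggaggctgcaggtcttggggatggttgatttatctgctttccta
Mab21l1 domain, chr3:55774306-55774406: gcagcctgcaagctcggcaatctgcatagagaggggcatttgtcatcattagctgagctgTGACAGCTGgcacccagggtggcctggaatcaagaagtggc
E130114P18Rik domain, chr4:97618701-97618801: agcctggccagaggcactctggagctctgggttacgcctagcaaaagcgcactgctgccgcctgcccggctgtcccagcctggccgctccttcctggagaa
Cerkl domain, chr2:79399739-79399839: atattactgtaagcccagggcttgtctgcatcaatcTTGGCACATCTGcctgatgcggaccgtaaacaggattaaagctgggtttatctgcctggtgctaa
Map3k1 domain, chr13:111936456-111936556: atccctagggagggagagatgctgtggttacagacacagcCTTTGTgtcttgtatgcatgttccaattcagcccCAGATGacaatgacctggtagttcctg
Tmem161b domain, chr13:84348235-84348335: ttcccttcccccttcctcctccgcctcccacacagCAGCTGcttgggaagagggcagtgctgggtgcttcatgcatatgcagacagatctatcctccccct
Stx6 and BC034090 domain, chr1:155193109-155193209: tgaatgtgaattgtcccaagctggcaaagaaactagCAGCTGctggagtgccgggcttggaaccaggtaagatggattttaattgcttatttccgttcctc
Srgap2 domain, chr1:131351597-131351697: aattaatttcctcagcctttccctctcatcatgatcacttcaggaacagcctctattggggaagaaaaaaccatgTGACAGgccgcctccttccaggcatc
Adk domain, chr14:21253551-21253651: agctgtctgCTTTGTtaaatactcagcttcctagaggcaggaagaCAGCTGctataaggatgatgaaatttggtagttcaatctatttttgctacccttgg
Pla2g4a domain, chr1:149672228-149672328: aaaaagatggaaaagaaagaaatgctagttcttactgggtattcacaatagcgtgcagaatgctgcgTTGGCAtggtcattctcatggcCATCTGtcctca
Ddx31 domain, chr2:28867582-28867682: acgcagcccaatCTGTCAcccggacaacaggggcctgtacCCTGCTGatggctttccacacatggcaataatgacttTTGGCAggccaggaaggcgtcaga

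The motifs were the E-boxes CAGATG (the *Neurod1* type) and CAGCTG (the *Atoh1* type), both read by basic helix-loop-helix factors, the NFI half-site TTGGCA, the Zic-type CAGCAGG, the homeodomain core TAATTA, the TALE core TGACAG, the Sox-type ACAAAG, the AP-1 site TGANTCA and the Gli site GACCACCC, each on both strands. Among the 19 windows, each of the E-boxes was found in 4, as was the NFI half-site. In the *Cerkl* window an NFI half-site directly adjoins a CAGATG on the other strand, and in the *Mab21l1* window the TALE core and a CAGCTG overlap. A match is a description of letters, and no factor other than Chd7 was measured in GNPs here.

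Over all 314 Chd7 peaks in the 246 domains, CAGATG lay within 50 bp of the summit at 69 (22.0%, 17.7 to 26.9). Away from start sites it lay at 55 of 161 summits (34.2%, 27.3 to 41.8), and within 1 kb of start sites at 14 of 153 (9.15%, 5.53 to 14.8). For Chd7 peaks outside these domains and away from start sites the share was 21.3% (166 of 778, 18.6 to 24.4). At H3K27ac summits of the same domains that held no Chd7, away from start sites, it was 8.57% (88 of 1027, 7.01 to 10.4), and at all such H3K27ac summits of the genome 9.93% of 18459. The interval of the distal Chd7 peaks in the domains did not overlap those of the other 2 kinds of summit. All 314 Chd7 peaks in the domains overlapped H3K27ac, against 76.9% of those outside (1196 of 1555). Acetylated Chd7 peaks outside the domains were not taken separately. CAGATG was singled out after its values were seen, an H3K27ac summit marks the highest acetylation rather than a bound factor, and none of these differences in CAGATG was tested.

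The other motifs gave smaller gaps. CAGCTG was at 13.0% of the distal Chd7 summits in the domains (21 of 161), at 15.9% of distal Chd7 summits elsewhere and at 5.65% of the distal H3K27ac summits without Chd7. TTGGCA was at 14.3%, 17.2% and 4.87% of these. In the same order, TGACAG was at 13.7%, 11.6% and 8.57%, ACAAAG at 11.8%, 7.46% and 10.2%, and CAGCAGG at 7.45%, 6.43% and 3.02%. TGANTCA was at 2.48% of the distal Chd7 summits in the domains, and TAATTA and GACCACCC at 0.62% each. At least 1 of the 9 motifs lay at 66.5% of the distal Chd7 summits in the domains (107 of 161), near the 62.0% of those outside (482 of 778), and at 38.4% of the distal H3K27ac summits without Chd7. Near start sites it was 32.0% in the domains (49 of 153). Base composition differed in the same windows, with a median GC content of 51.5% away from start sites and 64.4% near them, against 49.5% at the distal H3K27ac summits without Chd7, and its part in the shares was not tested.

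**Figure D1:**
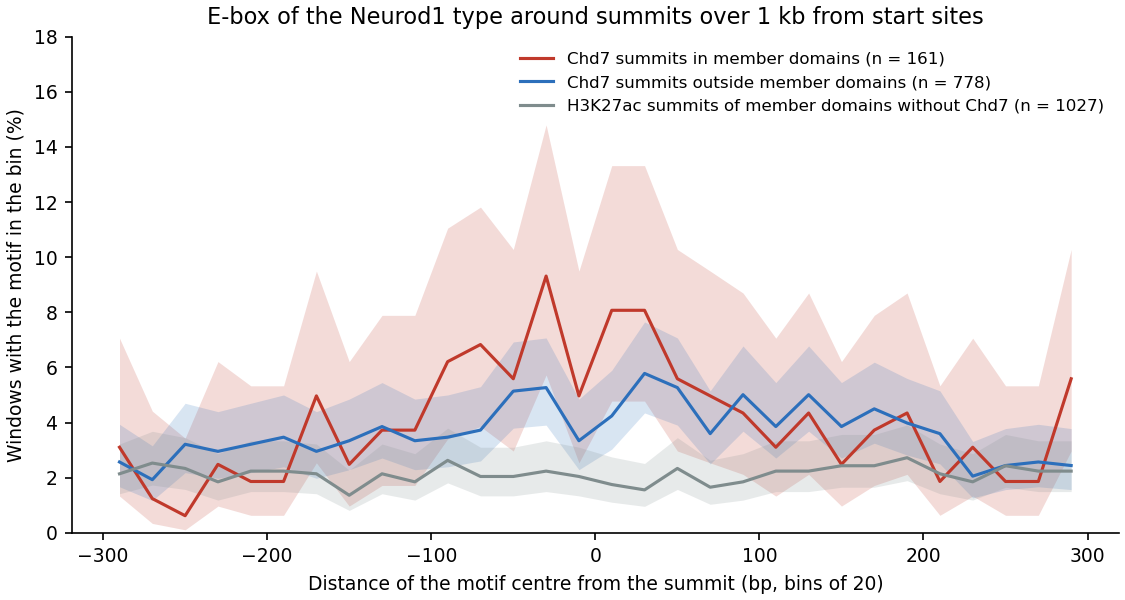
Share of windows with CAGATG (y axis, %) in 20-bp bins of distance from the summit (x axis, bp), for summits over 1 kb from start sites, with 95% Wilson intervals shaded. In the domains with Chd7 the share at Chd7 summits was highest at 9.32%, between 40 and 20 bp before the summit, whereas at H3K27ac summits without Chd7 the bins lay between 1.36% and 2.73%.

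At least 1 Chd7 summit with CAGATG was found in 63 of the 246 domains (25.6%). Of the windows printed above, those of the *Pla2g4a*, *Cerkl* and *Map3k1* domains hold it. The median fold enrichment of distal Chd7 peaks was 4.29 with CAGATG (n = 55) and 4.09 without (n = 106).

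The 246 domains covered 6.28 Mb. Their length ranged from 1.8 to 130 kb with a median of 20.9 kb, of which a median of 8.35 kb lay in H3K27ac peaks. They held a median of 5 H3K27ac peaks (1 to 38), and 36 consisted of a single H3K27ac peak. H3K27ac signal, in Mb times pileup, ranged from 0.541 to 9.62 with a median of 0.806. The 354 domains without Chd7 were similar in these measures, with a median length of 18.5 kb, 7.47 kb acetylated, 5 H3K27ac peaks and a signal of 0.759.

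A Chd7 peak was present in 54% of the 100 regions of highest signal (44.3 to 63.4), in 33% of the next 100, and in 44%, 45%, 32% and 38% of the following bins of 100. The 100 regions just below the limit had 37%. Over the whole table the share was 41% to rank 600 (37.1 to 45.0) and 6.83% after it (6.46 to 7.22). Per 100 kb of acetylated sequence the densities were 5.14 Chd7 peaks in the 600 domains (4.59 to 5.74) and 5.17 in the lower regions (4.88 to 5.47). Within the 600 domains, however, the density was uneven, at 3.69 and 3.71 in the first 2 bins of 100 ranks and 6.23, 7.98, 6.11 and 8.10 in the next 4, with 8.66 just below the limit.

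**Figure D2:**
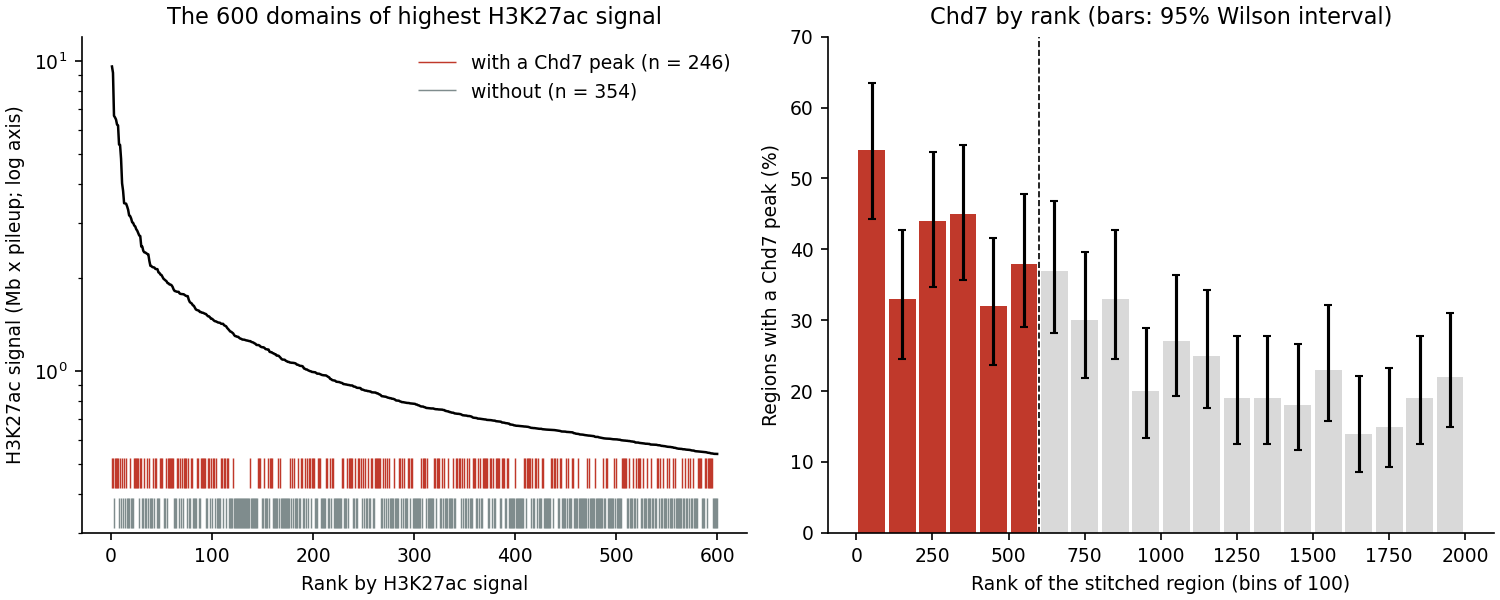
Left, H3K27ac signal of the 600 domains by rank (log axis; 1 on the axis is 1 Mb times pileup), with ticks for domains with (n = 246) and without (n = 354) a Chd7 peak. Right, share of stitched regions with a Chd7 peak in bins of 100 ranks to rank 2000 (bars, %, with 95% Wilson intervals), which starts at 54% and has no step at rank 600, marked by the dashed line.

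The lowest domains with Chd7 inside the limit include those of *Nlgn2*, a postsynaptic adhesion protein, with *Tmem256* and *Plscr3* (rank 594, signal 0.541), and of *Zfand5* (rank 595, signal 0.541). The 3 highest Chd7-holding regions outside it were those of *Tbl1xr1*, a corepressor subunit (rank 607, signal 0.535), of *H3f3a*, a gene of histone H3.3 (rank 608, signal 0.534), and 52487 bp from *Slc7a1* (rank 617, signal 0.530). Signal differed little across the limit.

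Most of the domains held a single Chd7 peak. There were 194 domains with 1, 41 with 2, 7 with 3, 3 with 4 and 1 with 5, so that 52 domains (21.1%, 16.5 to 26.7) held 2 or more. The latter had a median of 11.9 kb of acetylated sequence against 7.95 kb in domains with 1 peak. Where a domain held several Chd7 peaks, neighbouring summits lay a median of 4.88 kb apart (0.429 to 76.0 kb), and 34 of 68 pairs within 5 kb.

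Peaks in the domains were close to those elsewhere in fold enrichment and slightly higher and wider. Their fold enrichment over local background had a median of 4.04 (2.33 to 9.82) against 4.07 for the 1555 Chd7 peaks outside, their pileup a median of 21 against 20 fragments, and their width 447 against 412 bp. All 314 overlapped an H3K27ac peak, which the choice of domains all but requires.

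Within a domain, Chd7 lay on the highest H3K27ac peak in 188 of 246 cases (76.4%, 70.7 to 81.3). These include the 36 domains of a single H3K27ac peak, where the choice of domains fixes this. The next highest peak held Chd7 in 65 of 210 domains (31.0%), the third in 17 of 182 (9.34%), and lower peaks in 21 of 926 cases (2.27%). In the 182 domains of 3 or more H3K27ac peaks, the highest held Chd7 in 69.2% (62.2 to 75.5). Of the 1564 H3K27ac peaks of the domains, the 291 with Chd7 had a median pileup of 145 and a width of 3217 bp, against 28.2 and 705 bp for the 1273 without. Height and width moved together, and neither was held constant in these shares.

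Along the length of a domain there was no preferred place. The 5 equal parts from start to end held 20.7%, 20.1%, 18.8%, 19.7% and 20.7% of the Chd7 summits. Summits lay a median of 394 bp from the nearest H3K27ac summit and 2.80 kb from the nearer edge of the domain.

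**Figure D3:**
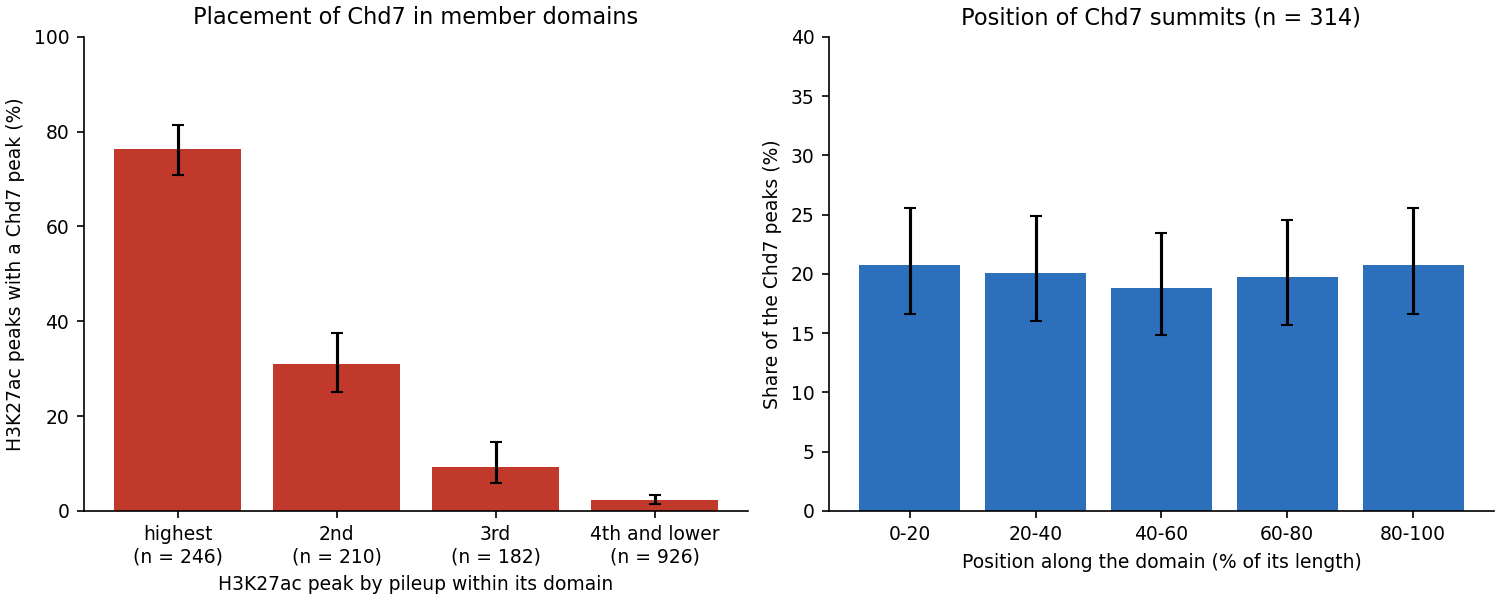
Left, share of H3K27ac peaks with a Chd7 peak (bars, %) by the order of pileup within the domain, which falls from 76.4% at the highest to 2.27% at the lower peaks. The highest peaks include those of the 36 domains of a single H3K27ac peak. Right, share of the 314 Chd7 summits in each of 5 equal parts of the domain (bars, %), all between 18.8% and 20.7%. Error bars are 95% Wilson intervals.

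Of the 314 Chd7 peaks, 153 (48.7%, 43.2 to 54.2) lay within 1 kb of an annotated transcript start, coding or not, 7 in exons, 86 in introns (27.4%, 22.8 to 32.6) and 68 between genes (21.7%). Outside the domains 777 of 1555 lay at start sites, with 18.1% in introns (16.3 to 20.1) and 29.7% between genes. In 133 domains at least 1 Chd7 peak lay at a start site, and in 113 all Chd7 peaks lay away from one. Of the 166 domains that include a protein-coding start site, 44 (26.5%) held Chd7 only away from start sites.

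A protein-coding start site lay inside 67.5% of the domains with Chd7 (61.4 to 73.0) and inside 80.2% of those without (75.8 to 84.0). Domains with Chd7 lay inside a gene in 41 cases (16.7%) and between genes in 39 (15.9%), against 35 each (9.89%) without Chd7. Each domain was named by the genes that start inside it, otherwise by the gene it overlaps, otherwise by the nearest start site, and nearness does not show that a domain acts on that gene. In this way 360 genes were assigned, of which 22 also had a domain without Chd7.

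The domain of highest signal, at chr15:85609917-85708149, lay between protein-coding genes, 27415 bp from the start of *Ppara*, a nuclear receptor of lipid metabolism. It had an H3K27ac signal of 9.62 Mb times pileup from 21 peaks and 3 Chd7 peaks, all on the highest H3K27ac peak, with folds of 4.94, 4.96 and 3.16. The first of these lay 528 bp from an annotated transcript start. The window of the second is the *Ppara* sequence printed above.

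Domains at transcription factor genes of the granule lineage followed. The domain of *Zic1* and *Zic4*, zinc finger factors of cerebellar development (rank 2, chr9:91348635-91420887), held 1 Chd7 peak. This peak lay 180 bp from an annotated transcript start but 11640 bp from the nearest protein-coding start, that of *Zic4*. The domain of *Zic2* and *Zic5* (rank 7, chr14:122449346-122491887) held 2, of folds 3.38 and 3.52. *Tcf4*, which encodes an E protein that partners with proneural factors, had 4 in a domain of 116 kb (rank 5, chr18:69496632-69612713), 2 of them at start sites and 2 in an intron, with a highest fold of 7.12. The domain of *Nfib*, a nuclear factor I gene (rank 6, chr4:82492435-82545317), held 2, both near transcript starts within the gene. In these domains, Chd7 at *Zic2* and *Nfib* thus lay within 1 kb of annotated transcript starts, and at *Tcf4* both there and further within the gene. For *Zic2*, 1 of the peaks lay 744 bp from a transcript start but 1112 bp from the nearest protein-coding start, that of *Zic2*. Further *Nfib* domains (ranks 96 and 206) held 1 Chd7 peak each, in introns of the gene.

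The most Chd7 peaks, 5, lay in the domain at chr13:83712894-83750836 (rank 4), 60006 bp from *Mef2c*, a MADS-box factor of neurons. It had 4 H3K27ac peaks. The highest of these held 3 Chd7 peaks and the next 2 held 1 each, at folds from 3.05 to 4.73, and 3 of the 5 lay within 1 kb of a transcript start. A stretch of 694 kb from this domain toward *Tmem161b*, a membrane protein gene, held 4 further domains with Chd7 (ranks 50, 92, 214 and 524), each with 1 peak. The 5 domains together held 9 Chd7 peaks, and 1 domain without Chd7 lay among them. The strongest, of fold 7.31, is the *Tmem161b* window printed above, 123071 bp from the start of that gene.

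*Chd7* itself had 3 of the domains with Chd7. The first (rank 11, chr4:8769614-8878038) covered 108 kb of the gene with 38 H3K27ac peaks and held 2 Chd7 peaks in introns, of folds 5.26 and 3.05. The other two lay 142 kb (rank 104, 2 Chd7 peaks) and 54.9 kb (rank 349, 1 peak) from the nearest start site of the gene, and the strongest of these 3 peaks had a fold of 6.66. A further domain of *Chd7* (rank 241, chr4:8682966-8696582), with a start site of the gene inside, held no Chd7 peak. *Gpm6a*, a neuronal membrane glycoprotein, and *Nfib* also had 3 domains with Chd7 each, and *Tmem161b* 4. In all, 14 genes had 2 or more.

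Other domains with 3 or more Chd7 peaks lay at *Clybl*, a mitochondrial enzyme gene near *Zic5* (rank 9, chr14:122338952-122408638), at *Mab21l1* (rank 15, chr3:55770966-55795613), at *E130114P18Rik* (rank 26, chr4:97575833-97688086), 115 kb from the kinase gene *Map3k1* (rank 74, chr13:111924032-111944941), at *Stx6* and *BC034090* (rank 148, chr1:155188772-155245075), at *Cars2* and *Ing1* (rank 236, chr8:11550396-11557948), inside *Adk* (rank 310, chr14:21250370-21255008) and at a cluster of histone genes (rank 471, chr13:21715197-21735733). All 3 Chd7 peaks of the *Clybl* domain were in introns and those of the *Map3k1* domain were between genes. The 3 of the *Mab21l1* domain lay within the gene *Nbea*, which hosts *Mab21l1*. By contrast, the 3 of the *Ing1* domain lay at start sites. They were 173, 258 and 485 bp from the nearest annotated start of *Ing1*, which has several, a chromatin reader of the tumour suppressor family. The *Adk* domain, in an intron of the adenosine kinase gene, consisted of 1 H3K27ac peak of 4.64 kb with 3 Chd7 peaks of folds 4.95, 5.78 and 6.27.

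The 4 Chd7 peaks of the histone domain all lay at start sites, 6 to 413 bp away. This was looked at further after its values were seen. Histone cluster genes, which supply histones for DNA replication, started in 4 domains with Chd7, with 30 such genes and 9 Chd7 peaks, all 9 at start sites, and in 1 domain without Chd7, with 3 such genes. These genes are near-identical to each other, and reads were kept only where they aligned once, so their peaks are uncertain.

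**Figure D4:**
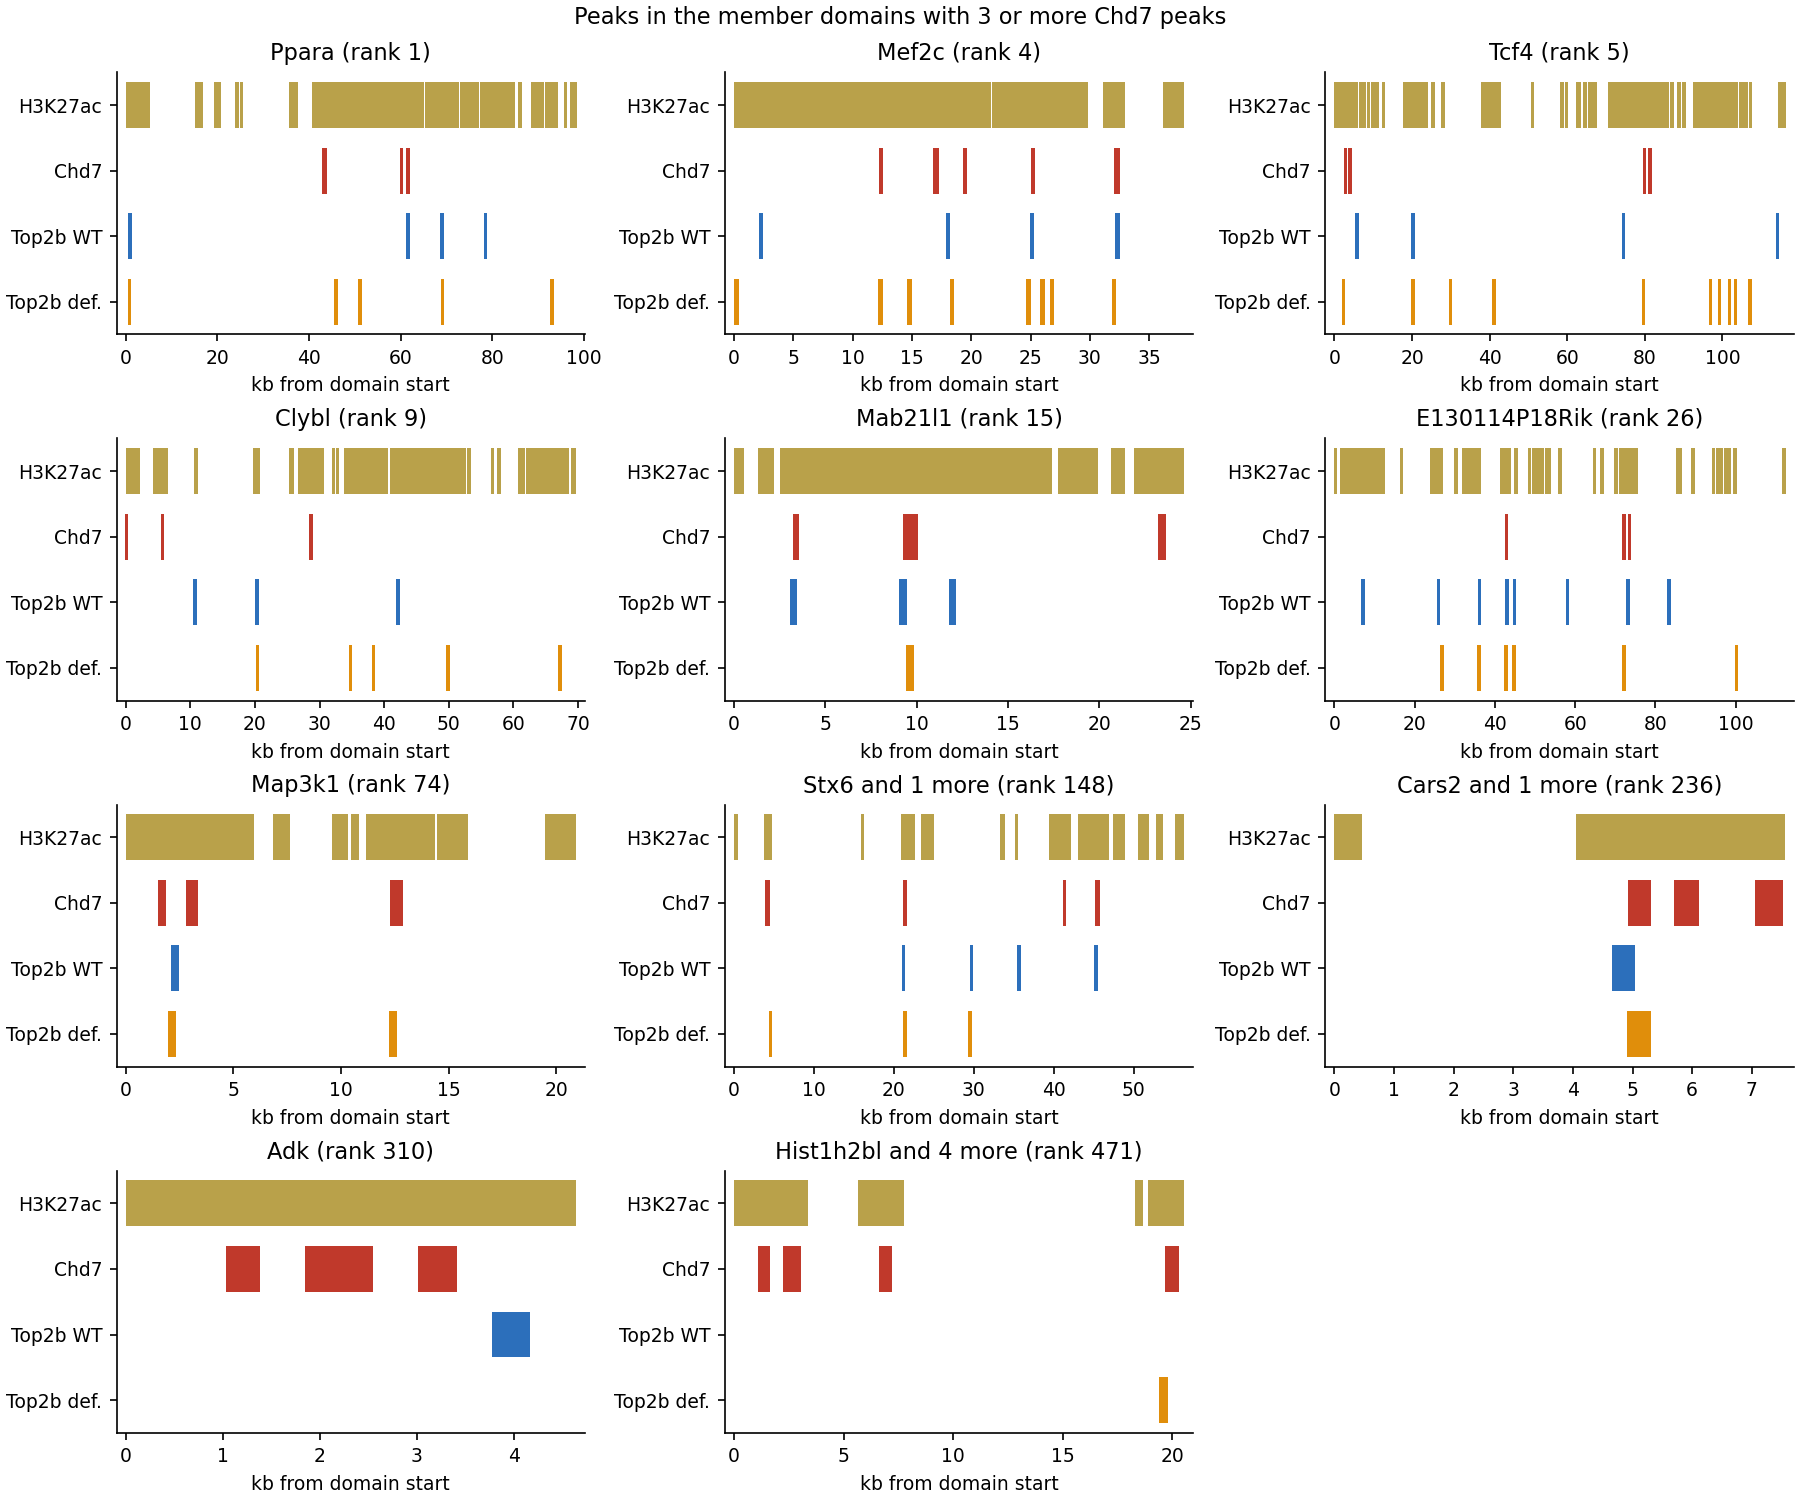
Peaks in the 11 domains with 3 or more Chd7 peaks, drawn to scale from the start of each domain (x axis, kb) in 4 rows for H3K27ac, Chd7, Top2b of WT CGNs and Top2b of *Chd7*-deficient CGNs (very short peaks widened to be visible). Chd7 peaks sit close together in the *Adk* and *Ing1* domains and far apart in the *Clybl* and *Stx6* domains.

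The highest Chd7 fold in the domains, 9.82, was in a domain of 6.57 kb between genes, 246597 bp from *Pla2g4a*, a phospholipase gene (rank 378). Other high folds include those at *Selenot* (7.87, rank 565), *Ddx31* (7.70, rank 506), *Cerkl* (7.36, rank 33), *Srgap2* (7.33, rank 199), *Tmem161b* (7.31, rank 92), *Tcf4* (7.12, rank 5), *Gpr19* (7.11, rank 589) and *Brpf1* (7.0, rank 507). High folds thus occurred over the whole range of ranks. Those at *Selenot*, which encodes a selenoprotein of the endoplasmic reticulum, *Gpr19*, an orphan receptor gene, and *Brpf1*, a subunit of a histone acetyltransferase complex, lay at start sites, and the others named here did not.

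Gene lists drawn up from general knowledge, but with earlier results of these data known, were counted next. Of 56 transcription factors of the granule lineage, 14 were assigned to a domain with Chd7 (25%) and a further 15 to one without only. For all 21728 protein-coding genes these shares were 1.66% and 2.37%. In addition to those named above, the 14 include *Pax6* (rank 24), *Meis1* (rank 23), *Uncx* (rank 29), *Klf7* (rank 42), *St18* (rank 44), *Neurod1* (rank 72), *Sox11* (rank 217) and *Myt1* (rank 266). Listed genes were thus found in domains with and without Chd7 in near-equal numbers, and the highest domain without Chd7 was that of *Nfix* (rank 3), another nuclear factor I gene.

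Of 30 genes of the hedgehog pathway and cell cycle, 6 were in domains with Chd7 and 2 only in domains without. The 6 were *Ptch1*, the Shh receptor (rank 91), *Sufu*, a negative regulator of Gli factors (rank 80), *Mycn*, a target of Shh in GNPs (ranks 200 and 269), *Ccnd2*, a cyclin of GNPs (signal 0.678), *Cdkn1b*, a cell cycle inhibitor (signal 1.46), and *Btg2*, an antiproliferative gene (rank 194). Chd7 lay 166 bp from a *Ptch1* start site, 92 bp from that of *Cdkn1b* and 40 bp from that of *Mycn*, whereas in *Sufu* it lay in an intron. The *Btg2* domain held 1 Chd7 peak at the start site and 1 further away, 15728 bp from it.

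Of 38 chromatin regulators, 5 were assigned to domains with Chd7, namely *Chd7*, *Kmt2e*, *Chd2*, *Arid1a* and *Setd5*, and 5 to others only. For *Chd2* that domain (rank 177) lay between genes, its Chd7 peak 76481 bp from the gene's start. The domain with a *Chd2* start site inside (rank 136) held no Chd7 peak. Of 60 genes of axon guidance and adhesion, 5 were in domains with Chd7 (*Tubb2b*, *Stmn1*, *Sema6a*, *Unc5c* and *Gpm6a*), and 5 in others only. Of 45 synapse and ion channel genes, 4 were (*Scn8a*, *Cacna2d1*, *Dlg4* and *Nlgn2*), and 2 in others only. For *Cacna2d1* that domain (rank 441) lay inside the gene, and the domain with a start site inside (rank 432) held no Chd7 peak. Over all protein-coding genes, 1.66% were in domains with Chd7 and 2.37% only in domains without. In *Unc5c*, a netrin receptor, the peak of fold 3.60 lay 110 bp from a start site, and in *Gpm6a* the strongest of 3 had a fold of 5.56.

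Genes that the study names for their dependence on Chd7 were placed as follows. *Neurod1*, the granule neuron differentiation factor, lay in a domain of rank 72 with 1 Chd7 peak of fold 3.85. This peak lay within 1 kb of an annotated transcript start but 2165 bp from the nearest protein-coding start, that of *Neurod1*. The *Cadps2* domain, at a gene of vesicle release, had rank 293 and no Chd7 peak. None of the 4 stitched regions counted at this gene held one. The study reports Chd7 binding at *Cadps2*, and Chd7 peaks beyond these regions were not counted for it. The highest regions at *Reln*, which encodes the secreted guidance protein reelin (rank 759), *Nkain3* (rank 2481) and *Gap43*, a growth cone protein (rank 2659), lay below the limit, each with 1 Chd7 peak. Lower regions of *Reln* (ranks 4837 and 8681) and *Nkain3* (rank 3550) also held 1 each.

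Top2b was not used in choosing the domains. It was measured in other cells, CGNs after 48 h in culture, and its lists hold positions only, 17030 peaks in WT and 21505 in *Chd7*-deficient CGNs. In WT, 258 Top2b peaks lay in the domains with Chd7, or 4.11 per 100 kb (3.62 to 4.64), and 146 of 246 domains held at least 1 (59.3%, 53.1 to 65.3). Domains without Chd7 had 340, or 3.81 per 100 kb (3.41 to 4.23), in 61.0%. The intervals overlapped, and with Chd7 peaks limited to a −log10 q-value of at least 5 the order turned, at 3.73 against 3.99. Under that limit 121 domains counted as holding Chd7, and the others include domains that hold only weaker Chd7 peaks.

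In *Chd7*-deficient CGNs, 412 Top2b peaks lay in the domains with Chd7, or 6.56 per 100 kb (5.95 to 7.23), in 76.4% of them, and 526 in those without, or 5.89 (5.40 to 6.41), in 79.1%. Both kinds of domain thus had more Top2b peaks in the *Chd7*-deficient list, which is the longer list overall. With that list shortened to the length of the WT list in file order, chosen after seeing the data, it had 6.44 per 100 kb in the domains with Chd7. What sets the file order is not known. Over the whole lists, 26.6% of the *Chd7*-deficient Top2b peaks overlapped H3K27ac peaks of GNPs, against 17.4% of the WT ones. More peaks in *Chd7*-deficient than in WT CGNs were found in 117 of the 246 domains, fewer in 42 and equal numbers in 87, and of the domains without Chd7 in 47.5%, 15.8% and 36.7%. The part of library depth or quality in this was not tested, since each genotype had 1 library.

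Few Top2b positions were shared by the genotypes. Of the 258 WT peaks in the domains, 173 (67.1%, 61.1 to 72.5) overlapped no peak of *Chd7*-deficient CGNs, against 83.2% of all WT Top2b peaks and 63.5% in the domains without Chd7. Of the 412 peaks of *Chd7*-deficient CGNs, 327 (79.4%, 75.2 to 83.0) overlapped no WT peak, against 86.7% of all and 76.4% in the domains without Chd7. Sharing changed with the order of the lists, from 54.3% in the first 10% of the WT list to 3.82% in the last 10%, and the lists do not say what sets that order.

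Domains of longer acetylated length had fewer Top2b peaks per kb of domain than the shortest, with and without Chd7. This length includes the gaps between H3K27ac peaks. With Chd7, the median acetylated length was 3.82 kb of a median 4.17 kb in the shortest group. In the longest group these were 17.1 and 41.8 kb. Densities per acetylated kb were not computed for these groups. In 4 groups of 150 domains, from the shortest to the longest acetylated length, WT Top2b peaks per 100 kb were 8.04, 4.42, 3.44 and 3.94 with Chd7 and 8.23, 4.18, 3.36 and 3.30 without. In *Chd7*-deficient CGNs they were 11.9, 7.0, 5.11 and 6.63 with Chd7, against 14.6, 5.76, 5.54 and 4.94 without. In 7 of these 8 pairs the intervals overlapped. In the longest group of *Chd7*-deficient CGNs they did not, with 6.63 (5.77 to 7.57) in 69 domains with Chd7 and 4.94 (4.29 to 5.66) in 81 without.

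**Figure D5:**
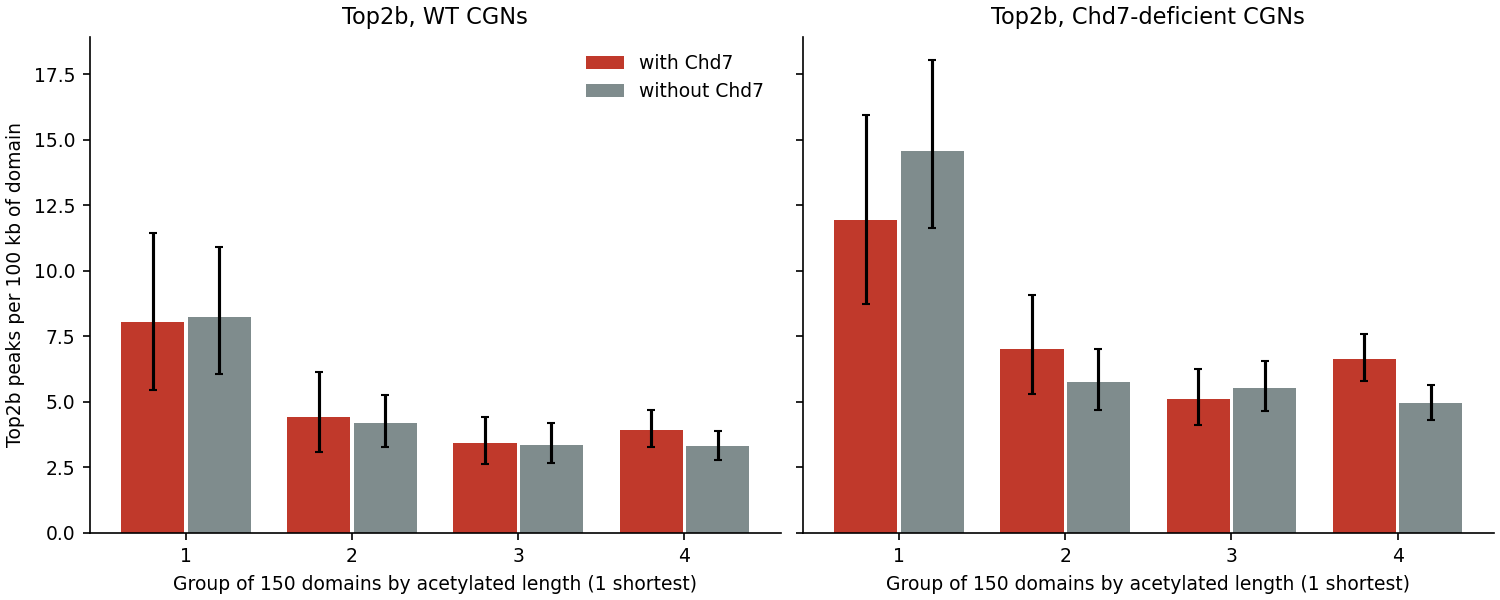
Top2b peaks per 100 kb of domain (bars, with exact 95% Poisson intervals) in WT CGNs (left) and *Chd7*-deficient CGNs (right), for domains with and without Chd7 in 4 groups of 150 domains by acetylated length (x axis, 1 shortest). Bars are highest in the shortest group, at 8.04 and 8.23 in WT, and the intervals of a pair overlap except in the longest group of *Chd7*-deficient CGNs.

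Of the 314 Chd7 peaks, 57 overlapped a WT Top2b peak (18.2%, 14.3 to 22.8), against 17.1% of all Chd7 peaks, and 115 a peak of *Chd7*-deficient CGNs (36.6%, 31.5 to 42.1), against 35.5% of all. The overlap in the domains was thus near that of Chd7 peaks in general. Both genotypes' Top2b peaks met at 31 Chd7 peaks, WT alone at 26 and *Chd7*-deficient alone at 84, and these overlaps were spread over 51 domains for WT and 108 for *Chd7*-deficient CGNs. The WT share was 18.3% at start sites, 18.6% in introns and 16.2% between genes. For distal Chd7 peaks it was 21.8% with CAGATG (12 of 55, 12.9 to 34.4) and 16.0% without (17 of 106, 10.3 to 24.2), and in *Chd7*-deficient CGNs 43.6% and 29.2%, with intervals that overlapped in both.

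Among the H3K27ac peaks of the domains, 34.7% of the 291 with Chd7 overlapped a WT Top2b peak and 8.09% of the 1273 without, against 9.39% of all H3K27ac peaks. In *Chd7*-deficient CGNs these shares were 57.0% and 13.9%, against 18.3% of all. Peaks with Chd7 were far wider. Among peaks of 2164 bp or wider, the WT shares were 37.8% with Chd7 (31.7 to 44.4, n = 222) and 27.8% without (21.6 to 35, n = 169), and in *Chd7*-deficient CGNs 59.9% (53.3 to 66.1) and 45.0% (37.7 to 52.5). Among peaks of 889 to 2161 bp, they were 26.3% (16.6 to 39.0, n = 57) and 9.58% (6.87 to 13.2, n = 334) in WT and 49.1% (36.6 to 61.7) and 17.4% (13.7 to 21.8) in *Chd7*-deficient CGNs. Of these 4 pairs of intervals, those of WT in the wider peaks overlapped and the other 3 did not. Within either class the peaks with Chd7 were still wider, with medians of 3747 against 3159 bp and 1688 against 1294 bp.

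The domain with the most WT Top2b peaks was that of *E130114P18Rik*, with 8 in WT and 6 in *Chd7*-deficient CGNs. It holds 3 Chd7 peaks in introns, and each of them overlapped a Top2b peak of at least 1 genotype. The *Zic1* and *Zic4* domain had 5 and 5, and an intronic domain of *Ralgapa2* (rank 68), a gene of a GTPase activating complex, 5 and 2. Domains with 4 in WT include those of *Mef2c*, with 8 in *Chd7*-deficient CGNs, *Tcf4*, with 10, *Chd7*, with 5, and *Clmp*, a cell adhesion gene (rank 99), with 0. The *Frmd4a* domain, at a gene of a cell polarity scaffold (rank 13, the longest at 130 kb), had 0 in WT and 6 in *Chd7*-deficient CGNs. Numbers of Top2b peaks in single domains thus differed between genotypes in either direction.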

How the data were processed

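ChIP-seq peak tables of 5 libraries were analysed, 1 per condition, grouped by the labels into H3K27ac and Chd7 of WT GNPs, Chd7 of *Chd7*-deficient GNPs, and Top2b of WT and *Chd7*-deficient CGNs. Per the labels and the study's methods, the authors trimmed reads with Trim Galore, mapped them to mm10 with Bowtie 1.0.0 keeping single alignments, and called peaks per library with MACS2 (GNPs) or HOMER (CGNs, with -F 2, -P 0.001 and -fdr 0.01). The GNP tables the authors deposited give pileup, a coverage signal, with the fold enrichment over local background and the −log10 of p- and q-values. In all 3 deposited tables the decimal points of fold and −log10 values were lost, and were restored by dividing by 100000. The −log10 p-values computed again from pileup and background came within 0.0026 of these. The control library and the scaling behind the H3K27ac pileup are not given in the sources used here. The Top2b lists the authors deposited hold positions of fixed width only, 396 bp in WT and 400 bp in *Chd7*-deficient CGNs, without a score. Read totals are not in the tables, so depth is unknown. The input libraries were not analysed here.

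On chromosomes 1 to 19 and X, 2 peaks were counted as overlapping when they shared 1 bp. Domains were built as the report describes, and genes and start sites came from GENCODE M21 on GRCm38. The domains named are the 10 of highest signal, those with 3 or more Chd7 peaks, those with the 10 highest Chd7 folds, up to 6 per gene list (all 14 for the granule lineage list), those at genes the study names, up to 3 on each side of the rank limit and the 5 with the most WT Top2b peaks, where ties at 4 were named in part. Some items under these rules are not reported here. The domains, lists, motifs and markers were chosen with earlier results of these data known. With 1 library per condition no test across samples was possible, and no p-value is given. The counting steps were tested on 1500 simulated regions, where 6 of 6 checks gave the planted values. Sequences were read with pysam 0.24.0, tables handled with pandas 2.3.3 and numpy 2.4.6, intervals computed with scipy 1.17.1 and plots drawn with matplotlib 3.10.9, under Python 3.11.15.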

Additional observations from a re-analysis of the deposited data

How the results depend on the processing

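Of 54 alternative values, 36 stayed within the 95% interval of the reported value, or within 1.5 times for the number of domains, and 18 moved, 12 of them downward. With Chd7 peaks of a −log10 q-value of at least 5, the number of domains with Chd7 was 121 and the share with 2 or more Chd7 peaks 12.4%. With stitching at 5 kb, the highest H3K27ac peak held Chd7 in 86.2% of domains, 52.9% of domains held a WT Top2b peak, and WT Top2b densities per 100 kb were 6.43 with Chd7 and 6.03 without. With H3K27ac peaks within 2.5 kb of start sites left out, the share with 2 or more Chd7 peaks was 14.6%, that of Chd7 peaks within 1 kb of a start site 0.922%, which the construction fixes, that with Chd7 on the highest H3K27ac peak 85.4%, that with a WT Top2b peak 44.3%, and the densities 3.53 and 2.89. With the first 50% of each Top2b list in file order, chosen after seeing the data, the densities were 3.35 in WT without Chd7 and 5.77 in *Chd7*-deficient CGNs with Chd7. WT Top2b peaks in the domains without a counterpart made up 55.0% with centres within 1 kb and 75.6% with an overlap of 50% of the shorter peak, and Chd7 peaks on WT Top2b 26.4% and 12.4%. The causes of the other shifts were not tested. Keeping 800 regions gave 313 domains with Chd7, scoring by fold 263, requiring the Chd7 summit inside an H3K27ac peak 239, stitching at 5 kb 225 and leaving out start sites 185. Values for Top2b peaks ranked by score (12 in all) were not run, since the lists hold none. No paired analysis was possible because each condition had 1 library and no result comes from a test. Depth is unknown, so sites missing from a list may be missed ones.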

Other observations

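The domains with Chd7 were unevenly spread over chromosomes. Chromosome 13 had 19 of its 28 domains with Chd7 (67.9%) and chromosome 4 had 27 of 46 (58.7%), whereas chromosome X had 0 of 5, and the remaining chromosomes lay between 26.3% and 54.2%. These shares were looked up after the other values were seen and were not tested. On chromosome 13, 5 of the 19 are the domains between *Mef2c* and *Tmem161b*, and these 5 held 7 Top2b peaks in WT and 13 in *Chd7*-deficient CGNs.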
